A study of Mus musculus with 12 samples.

Results

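Near-identical gene copies and the parent genes they derive from were followed in the mouse lens as 5 pairs, which are 10 of the 8676 genes listed in the deposited count table. In each pair the parent has introns and the copy is a single exon elsewhere in the genome. The pairs were taken by gene symbol as Atp6v0c-ps2 with Atp6v0c, Gm9825 with Rnps1, Hmga1b with Hmga1, Eif3j2 with Eif3j1, and Gm6166 with Fabp5, and all 10 were present in the table. They were chosen with genotype differences in these same counts known. Their levels, their fold changes and the counts of members past a threshold are therefore given as a description, with no p, and tests are given for other genes only.

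RNA was sequenced from lenses of C57BL/6J mice at P7 (postnatal day 7), in 3 libraries for each of 4 genotypes, with 6 lenses pooled per library. The groups were wild type, Epha2-Q722 (homozygous for an arginine-to-glutamine change in the tyrosine-kinase domain of the ephrin receptor EPHA2), Epha2-indel722 (homozygous for an in-frame insertion-deletion in the same domain) and Epha2-null. The Q722 and indel722 alleles came from founders of the same CRISPR/Cas9 editing, the indel722 allele from a single founder with an unintended edit, and both lines were then bred onto the C57BL/6J background. The null line has another origin, so in this design the Epha2 allele and other DNA of a mouse line cannot be told apart. No source used here says how the 6 lenses of a pool were distributed over mice, and any p-value measures the spread between pools.

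A processed copy arises when a messenger RNA is reverse transcribed and the DNA is inserted at another place, so it lacks introns and usually the promoter of its parent. Most such copies have no known function, although some keep an open reading frame and are annotated as protein-coding genes. Where copy and parent have the same bases, a sequencing read from one also matches the other, and the alignment and counting rules set which gene, if any, receives it. How reads matching more than 1 place were treated, and whether strand was used, is not given in the sources used here. The parents serve unrelated tasks: a proton pump (Atp6v0c), messenger RNA splicing and surveillance (Rnps1), chromatin architecture (Hmga1), translation initiation (Eif3j1) and fatty acid transport (Fabp5).

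The copies differed from their parents by 1 to 5 substitutions. In the GENCODE annotation of mm10, Atp6v0c-ps2, Gm9825 and Gm6166 are processed pseudogenes, and Hmga1b and Eif3j2 are protein coding. Atp6v0c-ps2 lies on chr6:37806086-37806550 (+ strand), is 465 bases long and corresponds to the coding sequence of Atp6v0c (chr17:24163866-24169702, - strand) with 1 substitution, T111C. Positions count from the A of the start codon of the parent, whose base is written first. Of the 365 stretches of 1 read length in the copy, 72.3% are present without mismatch in the parent, and the others all span that single base. The stretch centred near it is shown in both genes, with the differing base in capitals, at chr6:37806165-37806265 (+ strand) in the copy and chr17:24164782-24164882 (- strand) in the parent.
Atp6v0c-ps2: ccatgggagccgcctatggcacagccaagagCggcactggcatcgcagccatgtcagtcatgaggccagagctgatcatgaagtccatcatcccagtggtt
Atp6v0c: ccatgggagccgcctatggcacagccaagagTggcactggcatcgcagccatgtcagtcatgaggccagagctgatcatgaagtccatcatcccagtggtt

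Gm9825 (chr6:7982541-7983383, - strand, 843 bases) holds part of the coding sequence of Rnps1 (chr17:24414565-24425901, + strand) with 5 substitutions, C243A, C332T, T561C, T582C and C756T, and 44.4% of its read-length stretches are present in the parent. Neighbouring T561C and T582C are shown in capitals, at chr6:7982854-7982914 (- strand) in Gm9825 and chr17:24422169-24422229 (+ strand) in Rnps1, because a read across both carries 2 bases that tell the genes apart.
Gm9825: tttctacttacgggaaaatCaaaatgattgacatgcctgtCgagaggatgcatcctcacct
Rnps1: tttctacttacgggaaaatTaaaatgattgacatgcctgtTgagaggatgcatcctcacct

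Hmga1b (chr11:120762794-120764419, + strand, 1626 bases) has the same coding sequence as Hmga1 (chr17:27556497-27563674, + strand) over all 321 bases before the stop codon. It differs at 3 bases of the 3′ UTR (A562G, A689G and G1151T) and ends in a run of 24 A that the parent transcript lacks, and 78.6% of its read-length stretches are present in the parent. The first 61 coding bases are shown for both genes, at chr11:120762889-120762949 and chr17:27559569-27559629 (both + strand), as an example of a stretch with no differing base.
Hmga1b: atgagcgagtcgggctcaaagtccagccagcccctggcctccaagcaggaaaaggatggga
Hmga1: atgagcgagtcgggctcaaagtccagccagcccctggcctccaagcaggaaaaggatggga

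Gm6166 (chr9:57483963-57484371, + strand, 409 bases) corresponds to the coding sequence of Fabp5 (chr3:10012548-10016607, + strand) with 5 substitutions, T9C, T189C, C261T, G341C and T393C, and a 2-base insertion beside C261T. It is the least alike of the copies, with 25.6% of its read-length stretches present in the parent. The stretch that holds T189C, C261T and the insertion is shown with these in capitals, at chr9:57484137-57484237 in Gm6166 and in 2 exon pieces, chr3:10015066-10015143 and chr3:10015472-10015492, in Fabp5 (all + strand).
Gm6166: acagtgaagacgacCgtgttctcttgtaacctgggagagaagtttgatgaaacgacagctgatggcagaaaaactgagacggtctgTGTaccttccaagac
Fabp5: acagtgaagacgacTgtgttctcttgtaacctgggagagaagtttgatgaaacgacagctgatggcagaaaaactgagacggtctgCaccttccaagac

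Eif3j2 (chr18:43475418-43477796, - strand, 2379 bases) has 4 substitutions against Eif3j1 (chr2:122028546-122056598, + strand), 1 in the 5′ UTR and 3 in the 3′ UTR. It also has a 6-base insertion in the coding sequence, which is 789 bases against 783 in the parent, and a 4-base insertion in the 3′ UTR. Its share of read-length stretches present in the parent is 83.9%. Seen from the parents, 75.8% of the stretches of Hmga1 are present in the copy, 36.0% in Eif3j1, 24.4% in Atp6v0c, 18.1% in Rnps1 and 8.91% in Fabp5, so Hmga1 is the only one of the 5 parents with most of its stretches present in its copy.

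**Figure D1:**
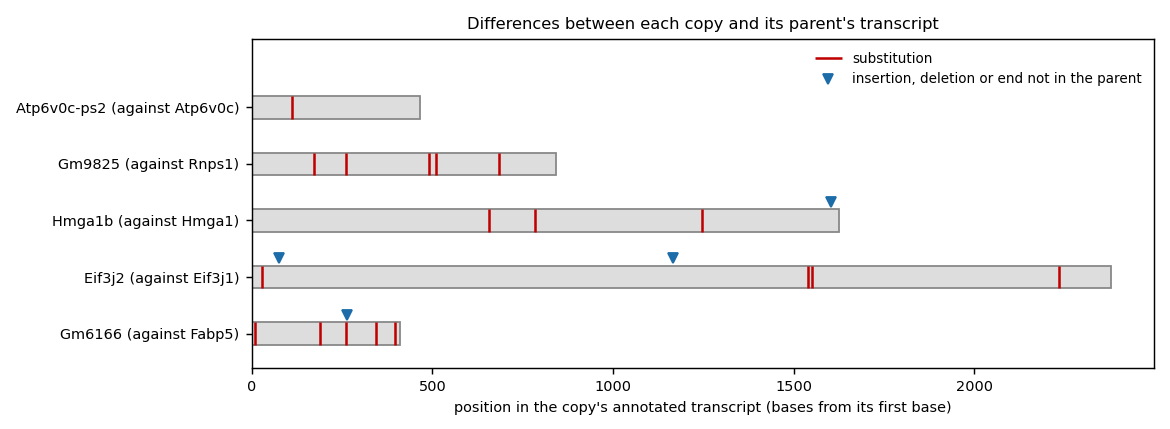
Positions of the differences along each copy, in bases from the first base of its annotated transcript. Bars are drawn to the length of the copy (409 to 2379 bases), vertical lines are substitutions and triangles are insertions or a terminal run of A that the parent lacks. The single substitution of Atp6v0c-ps2 lies at base 111 of 465, and the first difference of Hmga1b at base 657.

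Levels are given as normalized CPM, read counts scaled to the library total and by TMM factors (0.886 to 1.12) that correct for differing RNA composition. Genes are termed called where the adjusted p was 0.05 or less and the change 2-fold or more, by edgeR's quasi-likelihood test over all 8676 genes. Library totals were 14543069 to 20340688 counts, so that the 3 counts a gene without reads could still hold equal 0.147 to 0.206 CPM. Markers of lens fiber cells (9 of 9) and lens epithelium (4 of 4) were listed and those of red blood cells, retinal neurons, pigmented epithelium, macrophages, corneal epithelium and skeletal muscle were not, while Tek, 1 of 4 endothelial markers, was at 4.03 to 8.08 normalized CPM. Summed fiber markers ranged from 294068 to 321365 normalized CPM over wild type libraries, 226361 to 252832 over those of Epha2-null, 273440 to 285899 over Epha2-Q722 and 271234 to 284213 over Epha2-indel722, while summed epithelial markers ranged from 262 to 294 normalized CPM over wild type, 299 to 313 over Epha2-null, 305 to 363 over Epha2-Q722 and 318 to 336 over Epha2-indel722. With TMM factors, fiber sums were thus lower and epithelial sums higher in each mutant library than in any wild type library. These factors were 0.886 to 0.913 in wild type and 0.945 to 1.12 in the mutants. With library totals alone the fiber sums no longer separate the groups in this way. The part of these sums in the values of the pairs was not tested. Fewer cells of a type and less RNA per cell cannot be told apart in whole lenses. Epha2 itself averaged 56.9 ± 5.87 normalized CPM in wild type, 34.6 ± 3.44 in Epha2-null, 48.9 ± 4.90 in Epha2-Q722 and 20.7 ± 0.847 in Epha2-indel722 (mean ± SD, n = 3), and a count per gene does not show which exons are covered.

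Some read-length stretches are shared beyond the pair. Gm14328, another listed copy of Fabp5, shares 24 of them with both Gm6166 and Fabp5, AI413582 overlaps Hmga1 and shares 2, and Spg11, a gene of lysosome and axon upkeep that overlaps the end of Eif3j1 on the other strand, shares 624 of 5313. A further 223 stretches of Eif3j1 are present in Gm3650, which is not listed. Gm14328 averaged 6.88 normalized CPM in wild type, 8.79 in Q722 lenses, 7.73 in indel722 lenses and 5.21 in null lenses, and was not called in any comparison with wild type. Spg11 averaged 29.7, 31.4, 31.0 and 30.6 normalized CPM in the same order.

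The make-up of the table limits which copies can be seen. All listed genes pass 3 CPM in 6 or more libraries, and 5 of the members pass it in exactly 6. Atp6v0c-ps2, Gm9825 and Hmga1b pass it in the Epha2-Q722 and Epha2-indel722 libraries alone, Eif3j2 in those of Epha2-Q722 and Epha2-null alone, and Atp6v0c in those of wild type and Epha2-null alone. These 5 genes had to differ between genotypes to be listed, and a copy high in a single genotype and below 3 CPM elsewhere would not be listed. The other 5 members pass 3 CPM in all 12 libraries.

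The pairs followed 3 patterns across the genotypes. The 3 pairs whose parents lie on chromosome 17 (Atp6v0c, Rnps1 and Hmga1) had a high copy and a low parent in Epha2-Q722 and Epha2-indel722 and stayed near the wild type values in Epha2-null. The Eif3j pair had a high copy and a lower parent in Epha2-Q722 and Epha2-null, with Epha2-indel722 near wild type. Gm6166 was high in Epha2-Q722 alone. In Epha2-Q722 against wild type, 7 of the 10 members were called, where 0.807% of all genes were: 5 were higher (background 0.357%) and 2 lower (0.45%). In Epha2-indel722 5 were called (background 1.01%), of which 3 were higher (0.438%) and 2 lower (0.576%), and in Epha2-null 1 was called (background 0.841%), which was higher (0.346%). The 3 libraries of a mutant did not overlap those of wild type for 9, 7 and 5 of the 10 members in the same order, against 22.4%, 32.0% and 28.6% of all genes. Since the members were chosen on these contrasts, nothing is read from those counts. Summed to 1 row per pair, none of the 5 pairs was called in any of the 6 comparisons between genotypes.

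**Figure D2:**
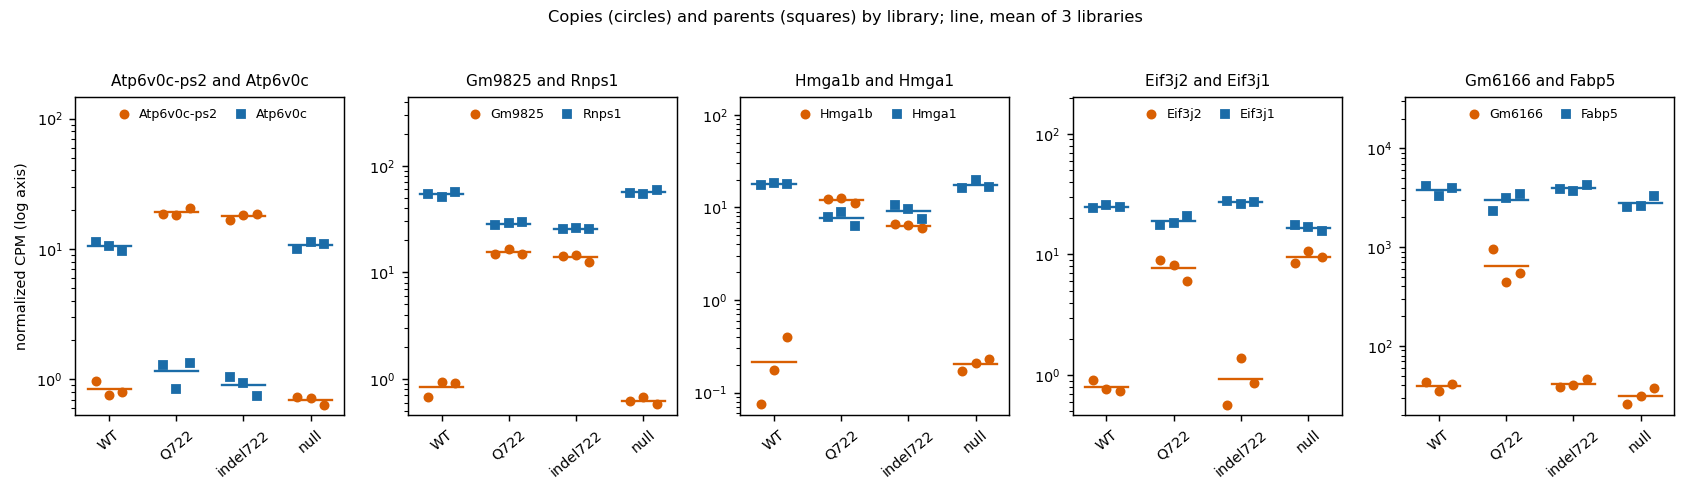
Normalized CPM (log axis) of each copy (circles) and parent (squares) in the 12 libraries, by genotype, with a line at the mean of 3 libraries. In the first 3 panels the copies stand high and the parents low in Q722 and indel722, and Atp6v0c-ps2 lies above Atp6v0c in these 6 libraries and below it in the other 6.

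Atp6v0c encodes the c subunit that forms the rotating ring of the V-ATPase, the pump that acidifies lysosomes and endosomes. The parent had 11.4, 10.5 and 9.60 normalized CPM in the wild type libraries and 9.93, 11.2 and 11 in Epha2-null, against 1.29, 0.851 and 1.33 in Epha2-Q722 and 1.04, 0.937 and 0.747 in Epha2-indel722. The copy Atp6v0c-ps2 had 18.6, 18.1 and 20.6 normalized CPM in Epha2-Q722 and 16.6, 18.4 and 18.6 in Epha2-indel722, against 0.979, 0.765 and 0.795 in wild type and 0.738, 0.725 and 0.634 in Epha2-null. Copy and parent thus exchanged places: the lowest of the 6 high libraries and the highest of the 6 low ones were far apart for both genes.

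The log2 fold change against wild type was 4.51 (SE 0.14) for Atp6v0c-ps2 and -3.18 (SE 0.16) for Atp6v0c in Epha2-Q722, and 4.40 (SE 0.14) and -3.50 (SE 0.16) in Epha2-indel722. In linear terms the copy was 22.7-fold and 21.2-fold higher and the parent 9.1-fold and 11.3-fold lower. Epha2-Q722 and Epha2-indel722 libraries overlapped for both genes. In Epha2-null the parent differed from wild type by 0.04 (SE 0.11), and the copy, at 11 to 14 counts per library against 13 or 14 in wild type, by -0.25 (SE 0.27). The gain of the copy exceeded the loss of the parent, at 18.3 normalized CPM gained and 9.34 lost in Epha2-Q722 and 17.0 gained and 9.59 lost in Epha2-indel722. The pair sum was accordingly higher, from 11.3 ± 0.979 normalized CPM in wild type to 20.3 ± 1.53 in Epha2-Q722 and 18.8 ± 1.0 in Epha2-indel722 (mean ± SD, n = 3), with the 6 libraries above all wild type libraries. It was 11.4 ± 0.677 in Epha2-null, where the libraries overlapped those of wild type. With library totals alone the log2 fold change of the sum was 0.99 in Epha2-Q722 and 0.90 in Epha2-indel722, just under the 2-fold threshold.

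Rnps1 encodes an RNA-binding protein of the exon junction complex periphery, which takes part in splicing and in surveillance of spliced transcripts. It was at 54.7, 51.2 and 56.1 normalized CPM in wild type and 55.5, 53.9 and 58.8 in Epha2-null, and at 27.5, 28.8 and 29.6 in Epha2-Q722 and 25.2, 26.3 and 25.6 in Epha2-indel722. Gm9825 was at 0.678, 0.942 and 0.908 in wild type and 0.624, 0.674 and 0.576 in Epha2-null, and at 15.0, 16.5 and 14.7 in Epha2-Q722 and 14.2, 14.7 and 12.5 in Epha2-indel722. As for Atp6v0c, the copy was high where the parent was low, but Rnps1 remained above its copy in each library.

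The parent was lower by 0.91 on the log2 scale (-0.91, SE 0.06) in Epha2-Q722 and -1.07 (SE 0.06) in Epha2-indel722, a level 1.88-fold and 2.10-fold below wild type. Scaled by library totals without TMM factors, the Epha2-indel722 value of Rnps1 was -0.90, under the 2-fold threshold. Gm9825 was higher by 4.16 (SE 0.15) and 4.0 (SE 0.15) on the log2 scale. Here the loss of the parent exceeded the gain of the copy: Rnps1 lost 25.3 normalized CPM in Epha2-Q722 and 28.3 in Epha2-indel722, and Gm9825 gained 14.6 and 12.9. The pair sum averaged 54.8 ± 2.47 in wild type, 56.7 ± 2.44 in Epha2-null, 44.1 ± 1.42 in Epha2-Q722 and 39.5 ± 1.5 in Epha2-indel722, so that the order was Epha2-null and wild type (overlapping), then Epha2-Q722, then Epha2-indel722, with no overlap between the last 3. In Epha2-null, Gm9825 libraries lay below those of wild type, at 10 to 13 counts against 9 to 16, a difference of -0.45 (SE 0.28) that was not detectable at this depth.

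Hmga1 encodes an AT-hook protein that binds the minor groove of AT-rich DNA and shapes chromatin, and Hmga1b carries the same reading frame. Hmga1 was at 17.5, 18.5 and 17.7 normalized CPM in wild type and 16.2, 19.8 and 16.8 in Epha2-null. It was at 7.82, 8.96 and 6.23 in Epha2-Q722 and 10.5, 9.61 and 7.47 in Epha2-indel722, lower than in each wild type library, and these 2 genotypes overlapped. The log2 fold changes against wild type were -1.23 (SE 0.13) and -0.95 (SE 0.12), and -0.02 (SE 0.12) in Epha2-null.

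Hmga1b was assigned few counts in 6 libraries, with 1, 3 and 7 in wild type and 3, 4 and 4 in Epha2-null. It had 193, 250 and 220 counts in Epha2-Q722 (12.5, 12.5 and 11.2 normalized CPM) and 139, 130 and 105 in Epha2-indel722 (6.56, 6.41 and 6.03 normalized CPM). Against the 11 counts of the wild type group, the ratio of group totals was 52.4 in Epha2-Q722 (95% exact interval 29.1 to 106) and 27.6 in Epha2-indel722 (15.3 to 55.9). These intervals, like all those given, cover counting error only. The fitted log2 fold changes were 5.67 (SE 0.22) and 4.75 (SE 0.25), and without wild type replicate 3, which holds 7 of the 11 counts, 6.44 and 5.51. No fold is given for Epha2-null against wild type, where both are at or near the floor.

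Hmga1b was the copy that separated the Q722 and indel722 alleles most, apart from Gm6166 and Eif3j2. Its Epha2-indel722 libraries all lay below those of Epha2-Q722, by 0.93 on the log2 scale (-0.93, SE 0.11), while Hmga1 differed between them by 0.27 (SE 0.14) with overlapping libraries. The gain of Hmga1b and the loss of Hmga1 were 11.9 and 10.3 normalized CPM in Epha2-Q722 and 6.12 and 8.73 in Epha2-indel722. The pair sum averaged 18.1 ± 0.549 in wild type, 17.8 ± 1.97 in Epha2-null, 19.7 ± 2.06 in Epha2-Q722 and 15.5 ± 1.84 in Epha2-indel722. The Epha2-indel722 sums lay below the wild type libraries and those of the other 2 genotypes overlapped them. This order depends on the scaling. With library totals alone the sum differed from wild type by -0.05 on the log2 scale in Epha2-indel722, where libraries overlapped. It differed by 0.27 in Epha2-Q722 and 0.24 in Epha2-null.

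Eif3j1 and Eif3j2 encode the j subunit of eIF3, a loosely bound subunit that helps the small ribosomal subunit hold and release messenger RNA. Eif3j2 had 0.903, 0.765 and 0.738 normalized CPM in wild type and 0.566, 1.38 and 0.861 in Epha2-indel722, and 8.99, 8.11 and 6.02 in Epha2-Q722 and 8.57, 10.7 and 9.5 in Epha2-null. Eif3j1 had 24.1, 25.5 and 24.9 in wild type, 27.9, 26.0 and 27.3 in Epha2-indel722, 17.4, 18.3 and 21.0 in Epha2-Q722 and 17.7, 16.9 and 15.6 in Epha2-null. The order of Eif3j1 was thus Epha2-indel722, wild type, then Epha2-Q722 and Epha2-null, whose libraries overlapped each other and lay below all wild type libraries.

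The log2 fold change of Eif3j2 against wild type was 3.26 (SE 0.24) in Epha2-Q722 and 3.58 (SE 0.23) in Epha2-null, and 0.23 (SE 0.36) in Epha2-indel722. That of Eif3j1 was -0.39 (SE 0.08), -0.57 (SE 0.08) and 0.12 (SE 0.08) in the same order. With TMM factors, this pair came closest of all to an exchange of equal size in normalized CPM. Eif3j2 gained 6.90 normalized CPM and Eif3j1 lost 5.97 in Epha2-Q722, and in Epha2-null 8.78 were gained and 8.12 lost. In proportion, the Hmga1 pair was as close in Epha2-Q722, at 11.9 gained and 10.3 lost. The pair sum stayed within a narrow range, 25.7 ± 0.654 in wild type, 26.3 ± 1.23 in Epha2-null, 26.6 ± 0.365 in Epha2-Q722 and 28.0 ± 0.563 in Epha2-indel722. Its log2 differences from wild type were 0.04, 0.05 and 0.12 in the 3 mutants in that order (SE 0.07 each). With library totals alone they were 0.30, 0.20 and 0.29, so the near-equal exchange held with TMM factors and not with library totals.

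Fabp5, a cytosolic carrier of long-chain fatty acids named for its abundance in epidermis, was by far the most counted member. Its libraries were at 4144, 3319 and 3983 normalized CPM in wild type and 3884, 3679 and 4306 in Epha2-indel722, at 2344, 3180 and 3436 in Epha2-Q722, and at 2547, 2618 and 3304 in Epha2-null. Gm6166 was at 42.8, 34.7 and 41.3 in wild type, 38.6, 40.03 and 46.1 in Epha2-indel722 and 25.8, 30.8 and 37.7 in Epha2-null, and at 952, 442 and 545 in Epha2-Q722. Replicate 1 of Epha2-Q722 had at once the highest Gm6166 and the lowest Fabp5 of the 12 libraries.

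Gm6166 in Epha2-Q722 was 16.3-fold above wild type (log2 4.03, SE 0.31, or 3.64 without that replicate), and it differed from wild type by 0.07 (SE 0.30) in Epha2-indel722 and -0.33 (SE 0.30) in Epha2-null, with overlapping libraries. Fabp5 differed from wild type by -0.35 (SE 0.15) in Epha2-Q722, where libraries overlapped, by 0.05 (SE 0.15) in Epha2-indel722 and by -0.43 (SE 0.15) in Epha2-null, where all 3 libraries lay below those of wild type. In Epha2-Q722 the copy gained 607 normalized CPM and the parent lost 829. In Epha2-null the parent lost 992 while the copy did not gain, so there the pair sum itself was lower, at 2854 ± 424 against 3855 ± 441 in wild type. The sums of Epha2-Q722 (3633 ± 342) and Epha2-indel722 (3998 ± 323) overlapped those of wild type. With library totals alone, Fabp5 and the pair sum each differed from wild type by -0.16 on the log2 scale in Epha2-null, with overlapping libraries. The size of the fall in Epha2-null thus depends on the scaling.

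**Figure D3:**
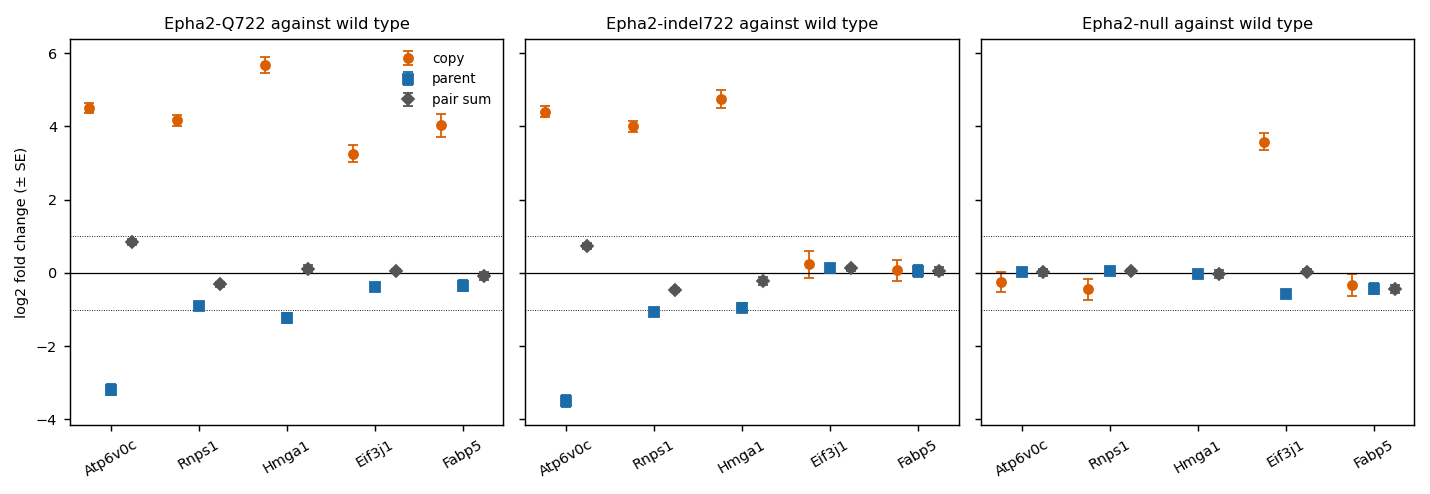
Log2 fold changes against wild type (± SE) of the copy (circles), the parent (squares) and their sum (diamonds), with each pair named by its parent and dotted lines at a 2-fold change. Summing brings all pairs inside the dotted lines, the largest sum being that of Atp6v0c in Epha2-Q722 at 0.84. With library totals alone that sum was 0.99, just inside the line. Hmga1b in Epha2-null is not drawn because its counts are near the floor.

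The part of a pair's counts given to the copy shows the same patterns without any scaling between libraries. It is a share of counts and not of molecules, since copy and parent transcripts differ in length. In wild type the copy took 7.45% ± 0.604 of the counts for Atp6v0c-ps2, 1.54% ± 0.294 for Gm9825, 1.19% ± 0.909 for Hmga1b, 3.13% ± 0.417 for Eif3j2 and 1.03% ± 0.00691 for Gm6166 (mean ± SD, n = 3). In Epha2-Q722 the shares were 94.3% ± 1.05, 35.0% ± 1.62, 61.4% ± 3.03, 29.0% ± 6.06 and 18.3% ± 9.24 in the same order, each above all wild type libraries.

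In Epha2-indel722 the shares of Atp6v0c-ps2 (95.1% ± 1.02) and Gm9825 (34.9% ± 1.81) differed from those of Epha2-Q722 by less than the SD of either group, and that of Hmga1b was lower, at 41.0% ± 3.26. Eif3j2 (3.37% ± 1.55) and Gm6166 (1.04% ± 0.0495) stayed at the wild type share there. In Epha2-null the Eif3j2 share alone did not overlap that of wild type, at 36.4% ± 3.3, and the others were 6.14% ± 0.738 (Atp6v0c-ps2), 1.10% ± 0.132 (Gm9825), 1.14% ± 0.181 (Hmga1b) and 1.10% ± 0.0852 (Gm6166).

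The share of Gm6166 moved little over 9 libraries and widely over the other 3. From 45345 to 83113 counts per pair, it held between 0.983% and 1.16% in the wild type, Epha2-indel722 and Epha2-null libraries. In Epha2-Q722 it was 28.9% in replicate 1 (95% exact interval 28.5% to 29.3%), 12.2% in replicate 2 (12% to 12.4%) and 13.7% in replicate 3 (13.4% to 13.9%), so the 3 pools differed far beyond counting error. Without replicate 1 the mean was 12.9%. The Eif3j2 share of Epha2-Q722 also spread widely, at 34.1%, 30.7% and 22.3%, where replicate 1 was again the highest.

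**Figure D4:**
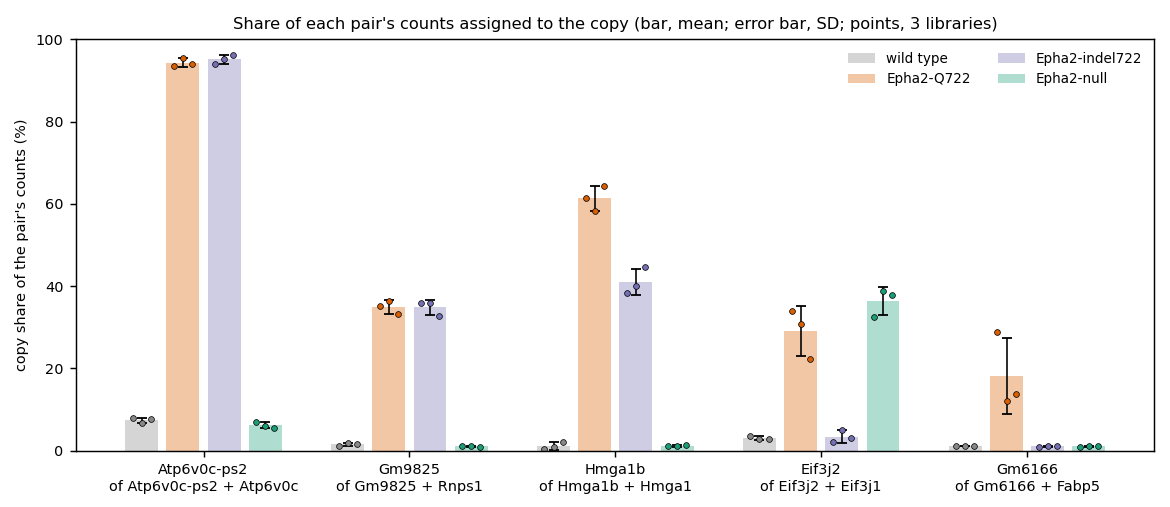
Copy share of the counts of each pair (percent), as bars for the mean of 3 libraries with SD and points for single libraries, by genotype. Q722 bars are high in all 5 pairs (18.3% to 94.3%), indel722 bars in the first 3 and null bars in the Eif3j2 pair only.

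The mutant genotypes were also compared with each other. In Epha2-indel722 against Epha2-Q722, 2 members were called (background 0.922%), both lower (background 0.53%): Gm6166, by 3.96 on the log2 scale (-3.96, SE 0.31), and Eif3j2, by 3.02 (-3.02, SE 0.22). In Epha2-null against Epha2-Q722, 6 members were called (background 1.21%), and in Epha2-indel722 against Epha2-null 6 (background 0.98%). Both sets held Atp6v0c-ps2, Atp6v0c, Gm9825 and Hmga1b. Hmga1 and Gm6166 completed the first, and Eif3j2 and Rnps1 the second. Eif3j2 did not separate Epha2-null from Epha2-Q722 (0.33, SE 0.14, overlapping libraries). These comparisons share libraries with those against wild type and add no independent count.

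The same test was applied to genes for partners of the parent proteins. Of 24 V-ATPase genes other than Atp6v0c, 16 were listed, and none was called. At an adjusted p of at most 0.05, passed by 6.37% of all genes in Q722 lenses, 13.1% in indel722 lenses and 11.2% in null lenses, 1 V-ATPase gene rose and 2 fell in Epha2-Q722, 2 rose in Epha2-indel722, and none passed in Epha2-null (1 at an unadjusted p under 0.05, and none with DESeq2). Atp6v1f, a stalk subunit of the pump, rose by 0.27 on the log2 scale in Epha2-indel722 (edgeR, adjusted p = 0.00566), from 70.1 ± 3.48 to 84.5 ± 3.43 normalized CPM. Its accessory subunit Atp6ap1 and the catalytic-sector subunit Atp6v1b2 did not pass in any genotype.

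All 12 other eIF3 subunit genes were listed. None passed in Epha2-Q722 by edgeR (3 at an unadjusted p under 0.05, none with DESeq2), 1 rose in Epha2-indel722 and 1 fell in Epha2-null, and none was called. Eif3a, Eif3c and Eif3h, the 3 most counted, passed in no genotype. Of 14 genes of the exon junction complex and nonsense-mediated decay, 12 were listed and none was called. None passed in Epha2-Q722 (0 at an unadjusted p under 0.05 and 0 with DESeq2), 2 fell in Epha2-indel722 and 1 fell in Epha2-null. One of these was Rbm8a, a core subunit of the complex, at 43.0 ± 1.95 normalized CPM in wild type and 37.4 ± 1.67 in Epha2-indel722 (edgeR, adjusted p = 0.0351, or 0.742 when scaled by library totals alone).

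Among 7 listed high mobility group genes of 8, Hmgn2, a nucleosome-binding relative of Hmga1 in name only, was called in Epha2-indel722, falling from 39.4 ± 4.99 to 15.7 ± 2.30 normalized CPM (log2 -1.34, SE 0.14, edgeR, adjusted p = 4.41e-05). It was at 40.8 ± 5.10 in Epha2-Q722, where no gene of the list passed (0 at an unadjusted p under 0.05 and 0 with DESeq2). In Epha2-null 2 genes of the list fell, among them the nucleosome-binding Hmgn3 by 0.30 on the log2 scale (-0.30, SE 0.06; adjusted p = 0.00205, and 0.715 with library totals). The medians of these 4 lists were within 0.2 of the median of all genes in every comparison with wild type. With library totals in place of TMM factors the median of all genes moves up by 0.15 in Q722, 0.17 in indel722 and 0.27 in null lenses. By that scaling 2 V-ATPase genes were higher and 2 lower past the adjusted p in Epha2-Q722, 7 and 0 in Epha2-indel722, and 12 and 0 in Epha2-null, and 3, 7 and 10 eIF3 genes were higher with none lower. Of the exon junction and decay genes, 1 was higher in Epha2-Q722, 3 were higher and 1 lower in Epha2-indel722, and 10 were higher and 1 lower in Epha2-null, so the direction of these small changes turned with the scaling. Of the high mobility group genes, 1 was higher in Epha2-Q722 and 1, Hmgn2, lower in Epha2-indel722.

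High copies were not confined to the 5 pairs. Of 67 other listed genes annotated as processed pseudogenes, 5 were called higher (0.357% of all genes) and 1 lower (0.45%) in Epha2-Q722. In Epha2-indel722 5 were called higher (0.438% of all genes). None was called in Epha2-null by edgeR (0.841% of all genes) or DESeq2, with 9 at an unadjusted p under 0.05. Past the adjusted p alone 6 rose and 1 fell in Epha2-Q722, 6 rose in Epha2-indel722, and 3 rose and 1 fell in Epha2-null, but with library totals 16 were higher and 1 lower, 14 and 0, and 19 and 0 in that order. Their medians against wild type were 0.08, 0.01 and -0.02 on the log2 scale, against 0.00 or 0.01 for all genes. This set had to pass the same 3 CPM limit. Among the genes called higher, Rps3a3 and Gm6969 passed it only in Epha2-Q722 and Epha2-indel722, so nothing is read from their calls. Gm6472 (called higher) and Gm5345 (called lower) averaged near this limit in other genotypes, so nothing is read from their calls either. Taken by symbol instead (ending in -ps and a number, or Gm and a number), 129 other genes were listed, of which 9 rose and 5 fell past the adjusted p in Epha2-Q722, 13 rose and 7 fell in Epha2-indel722, and 9 rose and 9 fell in Epha2-null, beside the 6.37%, 13.1% and 11.2% of all genes that passed. With library totals these counts were 22 and 5, 30 and 3, and 40 and 6, so the even split in null lenses held with TMM factors and not with library totals.

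Several of the called genes carry the symbols of ribosomal protein copies. Rps3a3 averaged 0.522 ± 0.0487 normalized CPM in wild type, 0.566 ± 0.243 in Epha2-null, 42.9 ± 13 in Epha2-Q722 and 32.7 ± 16.1 in Epha2-indel722. Gm6969, an annotated processed pseudogene, averaged 0.573 ± 0.112, 0.625 ± 0.0536, 18.4 ± 0.968 and 8.60 ± 2.17 in the same order, high in the same 2 genotypes. Both genes passed 3 CPM only in these 2 genotypes. They therefore had to differ between genotypes to be listed, and no p is given for them. Rpl14-ps1 rose in Epha2-indel722 alone (log2 1.62, SE 0.14; edgeR, adjusted p = 8.5e-07), and Rps26-ps1 (1.54, SE 0.16; adjusted p = 2.04e-06) and Rpl3-ps1 (2.19, SE 0.20; adjusted p = 1.88e-05) in Epha2-Q722 alone. The difference between the mutants was not tested for these 3. Rpsa-ps10 rose in Epha2-indel722 from 6.05 ± 0.426 to 195 ± 3.70 (adjusted p = 0.00521) and spread widely in Epha2-Q722, at 25.5 ± 32.1. Gm6472 was higher in both Q722 and indel722 lenses (log2 1.98 and 1.83, SE 0.48 each), and Gm5345 was lower in Epha2-Q722 (log2 -3.28, SE 0.53). Both averaged near the 3 CPM limit in other genotypes, so their listing can depend on these differences and no p is given for them.

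Chromosomal surroundings of the parents were compared next, since 3 parents share chromosome 17. Within 2 Mb of Atp6v0c, 63 other genes were listed, of which 14 passed the adjusted p in Epha2-Q722 and 14 in Epha2-indel722 (in each, 6 rose and 8 fell), and 4, which all fell, in Epha2-null, where 6.37%, 13.1% and 11.2% of all genes passed. Within 2 Mb of Rnps1, a region that largely overlaps, 13, 14 and 3 of 66 genes passed in that order, and within 2 Mb of Hmga1, further along chromosome 17, 8, 9 and 7 of 59. Tsc2, which encodes an inhibitor of the growth kinase mTORC1 and lies 426 kb from Atp6v0c and 170 kb from Rnps1, fell from 317 ± 24.5 to 149 ± 7.57 normalized CPM in Epha2-Q722 (log2 -1.09, SE 0.09, edgeR, adjusted p = 7.65e-08) and to 193 ± 22.4 in Epha2-indel722 (-0.72, SE 0.08; adjusted p = 8.97e-06). It was at 308 ± 28.2 in Epha2-null (adjusted p = 0.798).

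The gene next to Atp6v0c, Amdhd2, an enzyme of amino sugar breakdown whose end is 100 bases away, fell by 0.95 on the log2 scale (-0.95, SE 0.17; adjusted p = 0.000602) in Epha2-Q722 and -0.86 (SE 0.16; adjusted p = 0.000721) in Epha2-indel722, and was not changed past the threshold in Epha2-null (0.13, SE 0.15). On the other side Tbc1d24, which acts in synaptic vesicle trafficking, passed in no genotype, and neither did Pdpk1, a kinase of the insulin pathway, or Eci1, an enzyme of fatty acid oxidation 740 bases from Rnps1. Abca3, a lipid transporter on the other side of Rnps1, rose by 0.36 (SE 0.10; adjusted p = 0.0151) in Epha2-indel722.

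Further out on chromosome 17, the zinc finger gene Zfp758 was lower in Epha2-Q722 (log2 -1.36, SE 0.13) and in Epha2-indel722 (-2.09, SE 0.15). It averaged 2.93 and 1.77 normalized CPM there, near or under the 3 CPM limit. Its listing rests on wild type and Epha2-null, at 7.47 and 5.14, so no p is given for these 2 differences. In Epha2-null it fell by less (-0.54, SE 0.12; edgeR, adjusted p = 0.00414, and 0.0549 with library totals). Cacna1h, a T-type calcium channel, was lower in Epha2-indel722 (-1.63, SE 0.19) and, by just under 2-fold, in Epha2-Q722 (-0.94, SE 0.18). It averaged 1.46 and 2.32 normalized CPM there, under the 3 CPM limit. Its listing rests largely on wild type and Epha2-null, at 4.52 and 3.69, so no p is given for it. Decr2, a peroxisomal enzyme of fatty acid oxidation, was called in Epha2-indel722 (-1.08, SE 0.10; edgeR, adjusted p = 6.1e-08). It also fell in Epha2-Q722, by just under 2-fold (-0.91, SE 0.10; adjusted p = 1.38e-06). Near Hmga1, Itpr3, a calcium release channel, rose in Epha2-Q722 (log2 1.2, SE 0.14; adjusted p = 3.14e-06) and by less in Epha2-indel722 (0.72, SE 0.15; adjusted p = 0.0017). Grm4, a glutamate receptor gene next to Hmga1, rose modestly in all 3 mutants (0.35, 0.55 and 0.37), and Nudt3, on the other side, fell by 0.29 in Epha2-null (-0.29, SE 0.06; adjusted p = 0.00305, and 0.799 with library totals). None of these was called in Epha2-null.

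Around Eif3j1 on chromosome 2, Stard9, a kinesin gene 1297 kb away, had the genotype pattern of Eif3j2. It was at 0.675 ± 0.384 normalized CPM in wild type and 0.789 ± 0.114 in Epha2-indel722, and at 4.09 ± 0.792 in Epha2-Q722 (log2 2.54, SE 0.26) and 4.20 ± 0.202 in Epha2-null (2.60, SE 0.25). Like Eif3j2, Stard9 passed 3 CPM only in Epha2-Q722 and Epha2-null. It therefore had to differ between genotypes to be listed, and no p is given for it. Map1a, which encodes a microtubule-associated protein, rose in Epha2-null (1.22, SE 0.15; edgeR, adjusted p = 0.000106) and, at just under 2-fold, in Epha2-Q722 (0.99, SE 0.15; adjusted p = 0.00106).

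Beside the copies little was called. Of 15 listed genes within 2 Mb of Atp6v0c-ps2, 6 near Gm9825, 8 near Eif3j2 and 36 near Gm6166, none was called against wild type in any genotype, with at most 5 passing the adjusted p near any of these 4 copies in a comparison. DESeq2 was not counted for these neighbourhoods. Near Hmga1b, of 53 genes, 4 to 6 passed the adjusted p in a comparison, and Slc26a11, an anion transporter, was called in Epha2-Q722 (log2 -1.46, SE 0.15; adjusted p = 3.63e-07) and not in Epha2-indel722 (0.21, SE 0.12; adjusted p = 0.297). Around Fabp5 6 genes were listed, and none was called.

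**Figure D5:**
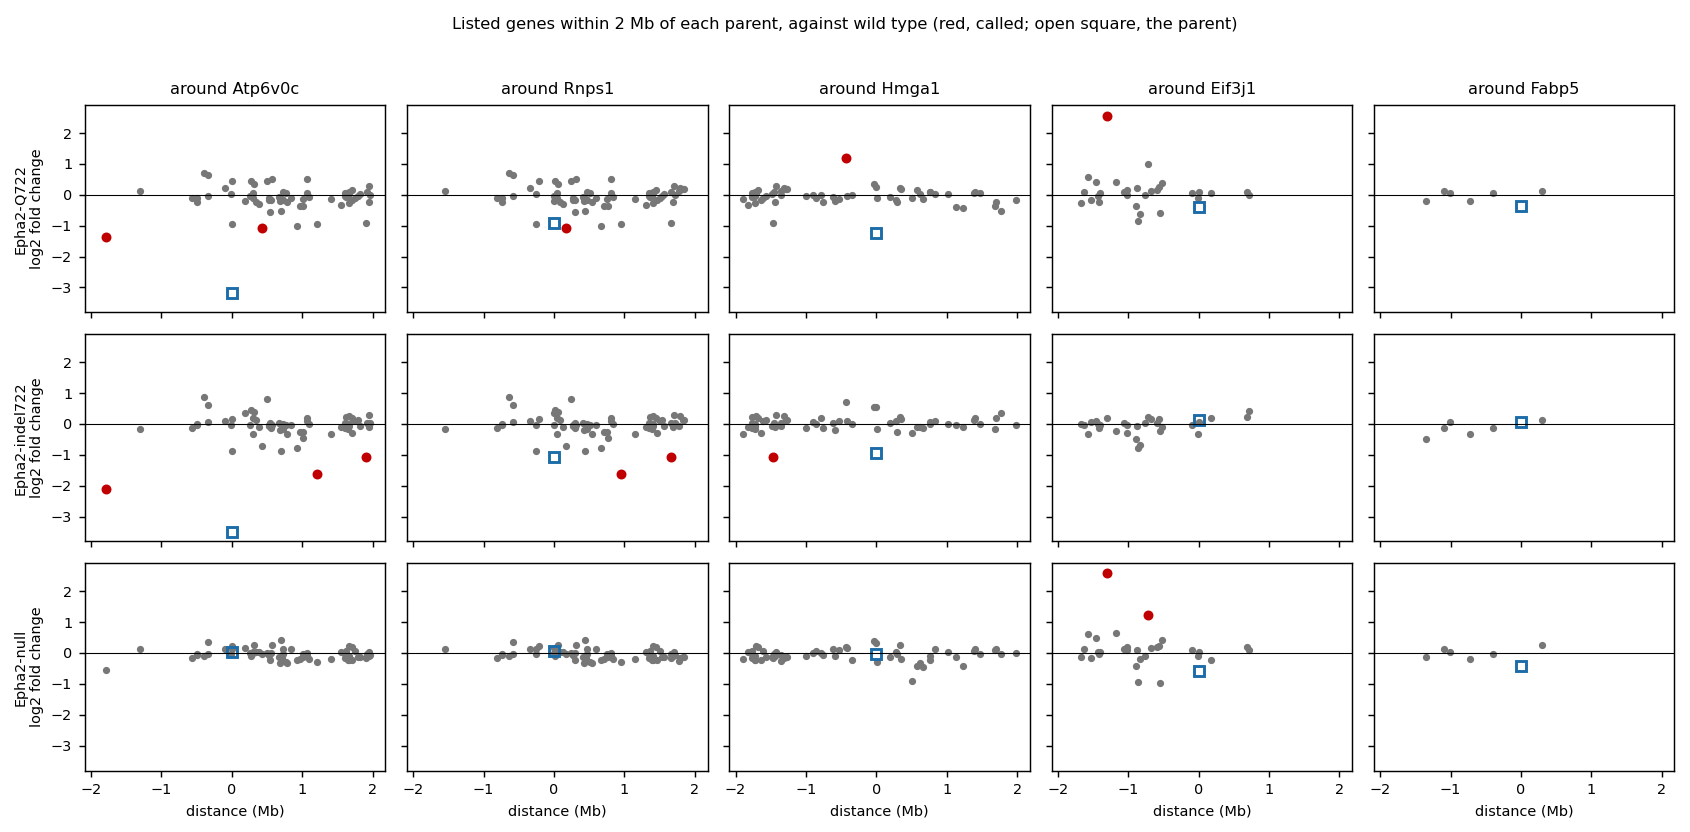
Log2 fold change against wild type of listed genes within 2 Mb of each parent (grey, red where called) against distance in Mb along the chromosome, by genotype, with the parent as an open square. Atp6v0c, at -3.18 and -3.50 in Q722 and indel722, lies below all its listed neighbours, and the highest point near Eif3j1 is Stard9, at 2.54 in Q722 and 2.60 in null.

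For each copy the 2 other listed genes with the most similar profile over the 12 libraries were sought, by Pearson's r of log2(normalized CPM + 0.5). The libraries share their genotype groups, so the values only describe likeness. Acer2, an alkaline ceramidase of the Golgi on chromosome 4, was the nearest to both Atp6v0c-ps2 (r = 0.997) and Gm9825 (r = 0.993), averaging 6.98 ± 1.5 normalized CPM in wild type, 7.22 ± 0.539 in Epha2-null, 126 ± 11.9 in Epha2-Q722 and 123 ± 2.68 in Epha2-indel722. Rps3a3 was the second for both (r = 0.985 and 0.990) and for Hmga1b (r = 0.984), for which Gm6969 came first (r = 0.989).

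Eif3j2 was most like 2 genes of chromosome 2, the chromosome of its parent: Stard9 (r = 0.968) and Ccdc9b (r = 0.954), the latter averaging 14.2 ± 0.825 normalized CPM over wild type and 13.2 ± 0.573 over indel722 libraries, against 22.2 ± 3.07 in Epha2-Q722 and 21.6 ± 0.575 in null lenses. Gm6166 was most like Clu (r = 0.957), the extracellular chaperone clusterin, and Sppl2a (r = 0.944), an intramembrane protease. Clu was at 1483 ± 105 normalized CPM in Epha2-Q722 and between 746 and 874 on average in the other genotypes, and Sppl2a at 125 ± 11 in Epha2-Q722 against 51.7 ± 1.75 in wild type.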

How the data were processed

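RNA-seq was made from 12 pools of P7 lenses (3 per genotype). Poly-A RNA was sequenced as paired ends, and the authors mapped the reads with STAR (2.5.3a) on the mm10 genome, filtered them with SAMtools (1.4.1) and counted them per gene with HTSeq (0.11.0), as the labels and methods state. The annotation release, strand setting and treatment of multiply matching reads are not given in the sources used here. The deposited table holds whole read counts, used as deposited. It also holds deposited CPM that lack TMM scaling and, from the authors' edgeR comparisons, fold changes and mean CPM (both log2), p-values and FDR. None of these were used. All 12 sample columns were used.

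Counts were fitted with edgeR 4.0.16 in R 4.3.3 (TMM factors, glmQLFit with robust estimation, glmQLFTest), with genotype as the only factor, 12 libraries in 1 fit and 8 residual degrees of freedom, and p-values were adjusted by Benjamini-Hochberg over 8676 genes. The prior count of fold changes was 0.125, and the SE is the fold change divided by the square root of F. Pair sums were fitted in a table with copy and parent added into 1 row. The procedure was tested on simulated data. Copy and parent transcripts of GENCODE vM21 (mm10) were aligned with edlib 1.3.9.post1, and windows of 1 read length were searched on both strands in all transcripts. Copy shares have exact Clopper-Pearson intervals (95%), and reads carry no molecular identifiers, so intervals and floors cover counting error only. Alternatives were library totals, DESeq2 1.42.0, edgeR's classic exact test, 6-library fits, 2 filters, a replicate block and leaving out each replicate.

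Members, lists and tests were chosen with earlier results of these data known. Named are all members and pair sums; called genes of each list, or otherwise its 3 most counted; the nearest listed gene on each side of a copy or parent and called genes within 2 Mb; and the 2 genes most like each copy. Of the nearest neighbours, those of the copies and of Fabp5 are summarised as counts, and of the lists, called genes with a Gm symbol that are not annotated as copies are not described. One further gene list is not reported here.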

Additional observations from a re-analysis of the deposited data

How the results depend on the processing

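Of 45 log2 fold changes against wild type (10 members and 5 pair sums in 3 genotypes), the 13 of at least 1 in size kept their direction in 237 of 237 values under the alternatives. The count of called members against wild type was 7 in Epha2-Q722, 5 in Epha2-indel722 lenses and 1 in Epha2-null. Between mutants it was 2, 6 and 6 in Epha2-indel722 against Epha2-Q722, Epha2-null against Epha2-Q722 and Epha2-indel722 against Epha2-null. Restricted to a mean of at least 10 CPM, which leaves 5383 genes and 5 members, these counts were 2, 1, 0, 1, 2 and 1, because fewer members were tested. With copy and parent summed to 1 row they were 0 in all 6. Library totals without TMM factors shifted fold changes by 0.15 to 0.27 and gave 7, 4, 1, 2, 7 and 7 called members; by that scaling 60.8%, 62.9% and 76.7% of all called genes were higher in the 3 mutants, against 44.3%, 43.2% and 41.1% with TMM. Leaving out 1 replicate at a time gave 7 to 7, 5 to 6, 1 to 1, 2 to 2, 6 to 6 and 6 to 7. The replicate block gave 7, 5, 1, 2, 6 and 6 called members; same-numbered libraries did not deviate together (r of -0.15 to 0.22 over 18 pairs, median -0.03), so the numbers were not taken as pairs. Depth limits Hmga1b, Gm9825, Atp6v0c-ps2 and Eif3j2 where they are low, at 1 to 28 counts per library.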
